A study of Mus musculus with 2 samples.

Results

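The genes described here are the nuclear genes of the mitochondrial respiratory chain and ATP synthase, chosen by symbol as those starting with Ndufa, Ndufb, Ndufc, Ndufs, Ndufv, Uqcr, Cox4 to Cox8 or Atp5, with Sdha to Sdhd. They are 96 of the 31253 genes in the deposited matrices, under 95 symbols, because Atp5o appears as 2 gene models. The 96 comprise 7 core and 30 accessory subunit genes of complex I, 8 assembly factors of complex I (Ndufaf genes), 4 genes of complex II, 8 of complex III, 21 of complex IV and 18 of complex V. The names starting with Ndufa also take in Ndufa4 and Ndufa4l2, which are grouped here with complex IV. All 96 were found in the GENCODE annotation of GRCm38, on 19 chromosomes, with 3 on the X chromosome, and 95 were annotated as protein-coding. The exception, Ndufb1-ps, carries the biotype of a long non-coding RNA from a bidirectional promoter. The 13 mt- genes, the protein-coding genes of the mitochondrial genome, are set beside them as a contrast and are no members.

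The cells came from mouse gliomas. Viable host immune cells, sorted as CD45.2+ CD45.1-, were profiled by single-cell RNA sequencing on BD Rhapsody, a microwell system. The 2 groups held 1 library each: tumours given PBS, a buffer used as the control, and tumours treated with EM, whose sample title adds 72 h. The title of the series concerns adoptively transferred macrophages. The term EM is not spelled out in the labels, and no time for PBS, strain, age, glioma line or number of animals is given there.

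With 1 library a group there is no replicate and no test, and every interval given is a 95% interval of counting error only. UMIs (unique molecular identifiers, counts of single captured RNA molecules) were summed over the cells of a class and expressed as CPM, in which the UMIs of each class are scaled to the same total. The PBS library kept 7756 cells (median 4303 UMIs) and the EM library 7967 (median 2016), and 66 barcodes occurred in both. The libraries also differed in sex-linked RNA: in T-like cells Xist, the RNA that silences an X chromosome, stood at 4.01 CPM in PBS and 402 in EM. Ddx3y, which lies on the Y chromosome, stood at 175 CPM in PBS and 4.55 in EM. In all, the kept cells held 516809 module UMIs in PBS and 238912 in EM, that is 11870 and 12377 CPM, and 95 and 92 of the members had at least 1 UMI. Cox8b, a heart and skeletal muscle subunit, had none in either library. Fewer cells with RNA of a gene and less RNA per cell cannot be told apart in such class sums.

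The respiratory chain moves electrons from NADH through complex I and from succinate through complex II to ubiquinone, then through complex III and cytochrome c to complex IV, which reduces oxygen. Complexes I, III and IV pump protons across the inner mitochondrial membrane, and complex V, the ATP synthase, uses that gradient to make ATP. Complexes I, III, IV and V are built from subunits encoded in 2 genomes, so nuclear and mt- transcripts have to supply the same enzymes, while complex II is nuclear only. In immune cells, oxidative phosphorylation is known for its place in T cell activation and memory and in alternatively activated macrophages, whereas mature neutrophils rely mainly on glycolysis.

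Promoters of 4 members on which the results below turn are shown first, as the 250 bases before the RefSeq start (GRCm38.p6), all on the minus strand: Cox6a1 (chr5:115348959-115349208), present in every class, Atp5g2 (chr15:102671048-102671297), far below its T-like level in neutrophil-like cells, Cox8a (chr19:7217617-7217866), which was near its T-like level there, and Sdhd (chr9:50603850-50604099), higher in monocyte/macrophage-like cells. Each runs 5′ to 3′ with the start at its right end, and capitals mark matches on either strand to the NRF1 motif (GCGCA directly followed by TGCGC), the ETS motif CCGGAAG, the SP motif GGGCGG or the TATA motif TATAAA, which were searched separately.
Cox6a1: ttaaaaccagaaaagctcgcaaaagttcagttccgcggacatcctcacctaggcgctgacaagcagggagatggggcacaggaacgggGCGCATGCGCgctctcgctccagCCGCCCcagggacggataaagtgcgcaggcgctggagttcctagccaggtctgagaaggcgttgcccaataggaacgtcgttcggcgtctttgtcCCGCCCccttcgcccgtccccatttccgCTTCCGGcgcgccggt
Atp5g2: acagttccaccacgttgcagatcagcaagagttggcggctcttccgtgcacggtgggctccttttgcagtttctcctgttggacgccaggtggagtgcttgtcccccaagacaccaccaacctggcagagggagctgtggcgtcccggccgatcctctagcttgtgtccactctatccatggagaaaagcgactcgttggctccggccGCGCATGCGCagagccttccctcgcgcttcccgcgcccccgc
Cox8a: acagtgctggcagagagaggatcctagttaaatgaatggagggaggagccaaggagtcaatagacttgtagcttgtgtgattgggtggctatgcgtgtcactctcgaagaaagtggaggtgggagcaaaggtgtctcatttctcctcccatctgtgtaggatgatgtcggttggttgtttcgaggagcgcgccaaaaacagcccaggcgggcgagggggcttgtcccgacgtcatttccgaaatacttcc
Sdhd: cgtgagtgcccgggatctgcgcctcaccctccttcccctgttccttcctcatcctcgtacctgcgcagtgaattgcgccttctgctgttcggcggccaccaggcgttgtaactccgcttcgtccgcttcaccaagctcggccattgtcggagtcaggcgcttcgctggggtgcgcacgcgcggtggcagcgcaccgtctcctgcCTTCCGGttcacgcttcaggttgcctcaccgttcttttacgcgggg
The Cox6a1 window held an NRF1 match beginning 162 bases before the start, SP matches at 139 and 44 bases and an ETS match at 16 bases. Atp5g2 had an NRF1 match at 42 bases and Sdhd an ETS match at 46 bases. None of the 4 motifs occurred in the Cox8a window.

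Promoters were found for 76 of the 95 symbols. The NRF1 motif occurred in 5 of 76 members (6.58%: Atp5g2, Atp5k, Cox6a1, Ndufa11 and Ndufaf4), against 0.877% of all 27025 genes with such a window. The ETS motif occurred in 14 members (18.4%) against 7.83% of genes. The SP motif stood nearer its background, in 31 members (40.8%) against 35.4%, and the TATA motif in 7 (9.21%) against 14.3%. The median GC content was 57.2% over the members' windows and 52.4% over all windows. These letter matches are a description and show no binding.

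Cells were placed in classes by marker genes that hold no respiratory chain gene, and each name means "like" that cell type. A class needs at least 3 of its 10 markers, and its lineage at least 2 more than the next lineage. Monocyte/macrophage, microglia and DC (dendritic cell) classes form a single lineage, counted by its highest marker list, with no margin between them. Within it, cells with at least 3 microglia markers and no fewer than their DC markers were microglia-like, whatever their phagocyte markers. Of the rest, those with at least 3 DC markers were DC-like, then those with at least 3 phagocyte markers monocyte/macrophage-like. In both libraries the module took a similar share of the RNA in most classes. T-like cells held 12748 CPM (12700 to 12796, 4044 cells) in PBS and 12836 CPM (12774 to 12898, 5140 cells) in EM, and monocyte/macrophage-like cells 12109 CPM (12049 to 12170, 1457 cells) and 12118 CPM (11931 to 12308, 774 cells). Both classes thus devoted a little over 1% of their UMIs to the module in both libraries (1.27% and 1.21% in PBS). NK-like cells held 11010 CPM (10786 to 11237, 237 cells) and 12391 CPM (12199 to 12586, 509 cells). DC-like (dendritic) cells held 12630 CPM (12459 to 12803, 136 cells) and 11638 CPM (11415 to 11865, 238 cells). B-like cells were lower, at 8295 CPM (7813 to 8800, 53 cells) and 8910 CPM (8520 to 9313, 97 cells), with intervals that overlap between the libraries. Of the classes with at least 50 cells, neutrophil-like cells, gated almost only in PBS (669 cells, 1 in EM), were lowest at 4666 CPM (4539 to 4794). Basophil/mast-like cells, gated in EM (164 cells, 4 in PBS), came next at 6512 CPM (6275 to 6756). pDC-like cells (plasmacytoid dendritic cells, 175 in EM and 2 in PBS) stood between the DC-like and T-like classes of EM, at 12130 CPM (11843 to 12422).

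**Figure D1:**
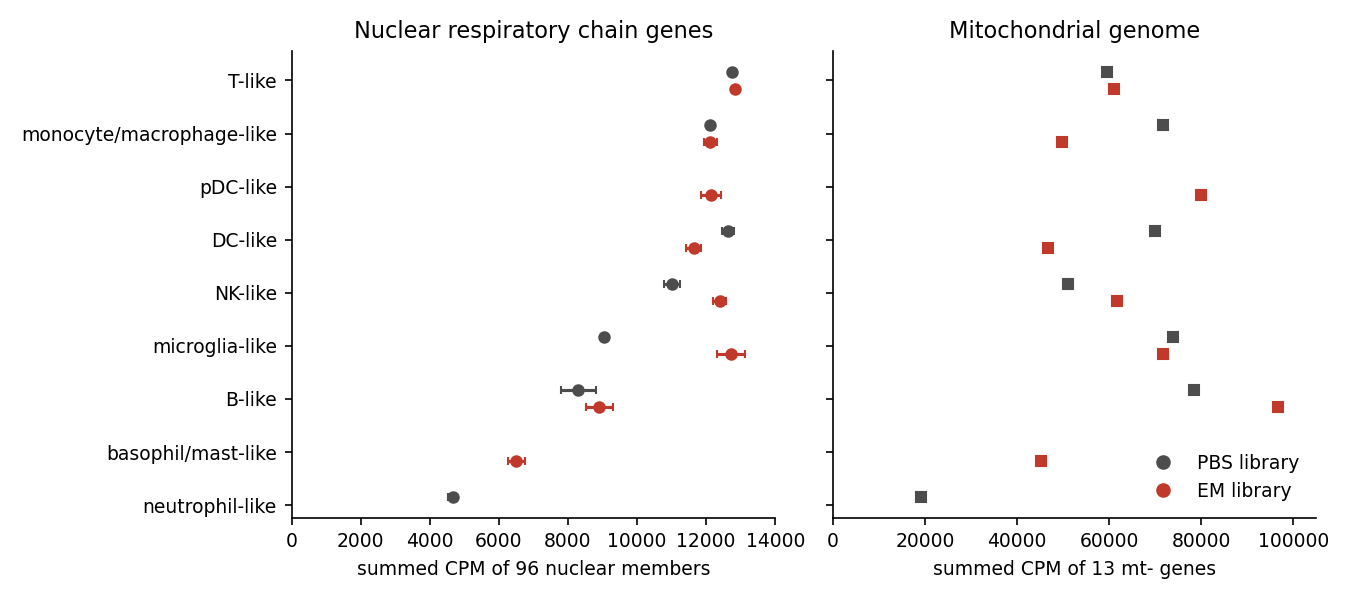
Summed CPM of the 96 nuclear members (left, circles with 95% counting intervals) and of the 13 mt- genes (right, squares) in each marker-gated class of at least 50 cells, PBS library in grey and EM library in red. The nuclear module lay between 11010 and 12836 CPM in both libraries for T-like, NK-like, monocyte/macrophage-like and DC-like cells, while mt- CPM in monocyte/macrophage-like and DC-like cells was lower in EM.

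Within the module, a few genes of each complex held the highest CPM. In T-like cells of PBS and EM these were Ndufa1 (243 and 236 CPM) and Ndufa2 (222 and 247) in complex I, Sdha (131 and 115), the catalytic subunit of complex II, level with Sdhd in EM (103 and 117), and Uqcrh (496 and 451), the hinge subunit of complex III. Cox8a (488 and 488 CPM) and Cox7c (478 and 610.1) led complex IV. Atp5g2 (509.6 and 574 CPM) led complex V, where it is 1 of 3 genes for the same c subunit of the rotor. Its paralogs Atp5g3 and Atp5g1 stood at 453 and 129 CPM in PBS. These are UMIs per gene with no correction for length, so they order RNA molecules captured, not protein.

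For EM against PBS, 5 classes had at least 100 cells in each library. A gene was counted with a mean of at least 20 CPM and at least 20 UMIs in the class, and called with a ratio of at least 1.5-fold whose interval excludes 1, which is a rule of size and not a test. In T-like cells the module differed by a log2 ratio of 0.0099 (0.001 to 0.019). Of 78 counted members (18 were too low), 3 were called higher in EM and 2 lower, against 8.1% and 10.2% of all genes counted. Atp5j2, the f subunit of the ATP synthase, stood at 75.9 CPM in PBS and 125 in EM, a log2 ratio of 0.71 (0.61 to 0.81). Ndufa4, a subunit now placed in complex IV, stood at 121 CPM in PBS and 193 in EM, and Uqcr10, a small complex III subunit, at 42.6 CPM in PBS and 64.4 in EM. The genes called lower were Ndufb10 at 103 CPM in PBS and 68.5 in EM and the complex I assembly factor Ndufaf2 at 34.8 CPM in PBS and 22.7 in EM. The T-like module was therefore level between the libraries, and few single members were called, in either direction less often than all genes. Among T-like subsets the module log2 ratio was 0.044 (0.033 to 0.055) with Cd8a or Cd8b1 and no Cd4, 0.022 (-0.0029 to 0.047) with Cd4 only and 0.10 (0.064 to 0.13) with Foxp3, the regulatory T cell factor. With Cd8a or Cd8b1, 2 of 79 counted members were higher and 1 lower (background 7.62% and 11.9%), with Cd4 only 1 of 77 higher and 2 lower (8.33% and 12.6%), and with Foxp3 5 of 78 higher and 2 lower (8.43% and 12.6%).

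In NK-like cells the module log2 ratio was 0.17 (0.13 to 0.21). Of 76 counted members, 8 were called higher and 2 lower, against 9.14% and 16.5% of all genes. Complex IV held the largest ratio of the complexes, 0.35 (0.28 to 0.42), while complex I stood at 0.027 (-0.046 to 0.10). The members called higher included Cox7b (145 CPM in PBS and 243 in EM), Cox7c (344 CPM in PBS and 539 in EM) and Cox6b1 (248 CPM in PBS and 391 in EM). Atp5j2 stood at 62.1 CPM in PBS and 138 in EM, a log2 ratio of 1.15 (0.70 to 1.63), Uqcr10 at 25.1 CPM in PBS and 50.2 in EM and Ndufa8 at 39.4 CPM in PBS and 75.3 in EM. The members called lower, Ndufb10 and Ndufb7, are both accessory subunits of complex I, at 96.7 CPM in PBS and 59.6 in EM and at 84.8 CPM in PBS and 56.5 in EM.

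In monocyte/macrophage-like cells the module stood level, at a log2 ratio of 0.0011 (-0.023 to 0.025), with 4 of 76 counted members called higher and 1 lower, against 14.9% and 23.9% of all genes. The members called higher were Atp5j2 (58.5 CPM in PBS and 107 in EM), Ndufa8 (52.4 CPM in PBS and 85.8 in EM), Ndufs8 (20.1 CPM in PBS and 32.6 in EM), an iron-sulfur core subunit of complex I, and Ndufc2 (127 CPM in PBS and 197 in EM). Uqcr11, a small complex III subunit, was called lower at 86.6 CPM in PBS and 56.2 in EM. No complex differed by more than 0.13 on the log2 scale. The EM cells of the class were shallow, with a median of 1044 UMIs against 8064. Within EM the module went from 15437 CPM in cells of 500 to 1000 UMIs to 10037 in cells of 4000 to 8000, while PBS cells in the same ranges held 10942 and 12158. With each cell counting equally the log2 ratio was 0.21, and it was -0.12 in cells of at least 1000 UMIs and at most 10% mt- UMIs. The part of depth in this was not tested. Summed T markers in the class were 89.7 CPM in PBS and 235 in EM, against 6635 and 7192 in T-like cells.

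The level class sum covered subsets that differed. Cells with Ly6c2, a marker of inflammatory monocytes, and no Arg1 or Mrc1 held 13366 CPM (13082 to 13653, 122 cells) in PBS and 10219 CPM (9966 to 10477, 217 cells) in EM, a log2 ratio of -0.39 (-0.43 to -0.34). There, 19 of 75 counted members were called lower and 0 higher, against 19.9% and 12.9% of all genes, with a member median of -0.38 beside -0.16 for all genes. The count called lower was thus not far above the background. By complex, those called lower were 11 complex I subunits, 5 complex V subunits and 1 gene each of complexes II, III and IV. Ndufb7 had the lowest ratio, at 114 CPM in PBS and 42.8 in EM, Ndufv3 stood at 194 CPM in PBS and 74.1 in EM, and Atp5b, the catalytic beta subunit of the ATP synthase, at 257 CPM in PBS and 132 in EM. Cells with Arg1 or Mrc1, genes of alternatively activated macrophages, went the other way, from 11931 (1135 cells) to 12864 CPM (141 cells), a log2 ratio of 0.11 (0.056 to 0.16). There 9 of 77 members were higher and 1 lower (background 13.8% and 16.4%). The other cells of the class stood at 13424 and 14168 CPM, with 6 of 78 members higher and 5 lower (14.9% and 22.1%). Arg1 or Mrc1 cells were 1135 of 1457 in PBS and 141 of 774 in EM, so the mix of the class differed between the libraries as well. Median UMIs were 5280 and 2747 in the Ly6c2 cells and 9695 and 1056 in the Arg1 or Mrc1 cells, and the part of this depth in who enters a subset was not tested. Cells of the class without cell cycle markers stood at -0.074 (-0.10 to -0.046), with 2 of 75 members higher and 5 lower (14.5% and 23.7%). The difference between the subsets' ratios was not tested.

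DC-like cells were the compared class with the lowest module ratio, -0.12 (-0.15 to -0.084). The gate did not hold like cells in both libraries: summed phagocyte markers were 12676 CPM in PBS and 3072 in EM, DC markers 1847 and 4424, and median UMIs 11805 and 3412. Their part in the ratios was not tested. Of 77 counted members, 7 were called lower and 2 higher, against 17.1% and 16% of all genes, so neither count stood above the background. Sdhc, a membrane anchor of complex II, stood at 91.4 CPM in PBS and 45.0 in EM, a log2 ratio of -1.02 (-1.56 to -0.51). Uqcr11 stood at 84.1 CPM in PBS and 41.7 in EM and Uqcr10 at 56.0 CPM in PBS and 32.6 in EM, both in complex III. The complex I subunits called lower were Ndufs1 (log2 -0.89), Ndufv3 (-0.82), Ndufb9 (-0.76) and Ndufb10 (-0.71). Those called higher were Ndufs6 (32.9 CPM in PBS and 55.2 in EM) and the assembly factor Ndufaf8 (18.9 CPM in PBS and 34.9 in EM). Uqcr10 was thus lower in EM in DC-like cells and higher in T-like, NK-like and microglia-like cells, and the difference between classes was not tested.

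The largest module difference was in the microglia-like gate, the resident macrophages of the brain, at 9043 CPM (8944 to 9143, 321 cells) in PBS and 12719 CPM (12316 to 13131, 211 cells) in EM, a log2 ratio of 0.49 (0.44 to 0.54). Of 77 counted members 28 were called higher and 1 lower, against 16.7% and 22.5% of all genes, with a member median of 0.49 beside -0.11 for all genes. Complexes I, IV and V had overlapping intervals, at 0.56 (0.47 to 0.65), 0.58 (0.49 to 0.66) and 0.49 (0.40 to 0.58). Complex III stood at 0.21 (0.033 to 0.39) and complex II at 0.023 (-0.26 to 0.29), an interval that includes 0. Atp5j2 stood at 32.3 CPM in PBS and 135 in EM (114 and 40 UMIs), Uqcr10 at 26.7 CPM in PBS and 74.0 in EM and Ndufa4 at 98.4 CPM in PBS and 259 in EM. In complex I, Ndufa8, Ndufa12 and Ndufc2 had log2 ratios of 1.29, 1.26 and 1.18. The member called lower, Ndufa6, stood at 104 CPM in PBS and 60.6 in EM on 18 EM UMIs, and it was above 0 with only cells of 5 or more microglia markers (log2 0.27) or with all cells thinned to 1000 UMIs (0.38).

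The gate did not hold the same cells in both libraries. Its summed microglia markers were 1238 CPM in PBS and 5893 in EM. PBS cells with 3 or 4 markers (186) held Mrc1 at 1307 and Arg1 at 1054 CPM with Tmem119 at 28.3, against Tmem119 at 235 in the 144 EM cells. The microglia name is therefore in doubt for that part of the PBS gate. Among cells with 5 or more markers, chosen after seeing the data, Tmem119 stood at 277 CPM in PBS (135 cells) and 338 in EM (67 cells), and Sall1 at 238 and 279. In these cells the module stood at 7224 CPM (7075 to 7376) and 11504 (10901 to 12132), a log2 ratio of 0.67 (0.59 to 0.75), with 26 of 74 counted members called higher and 0 lower against 12% and 13.9% of all genes. Other microglia markers still differed in these cells, with Fcrls at 1.62 and 516 CPM and Sparc at 184 and 1683, so the libraries' microglia-like cells were not matched. Among cells with 3 or 4 markers the log2 ratio was 0.43 (0.37 to 0.49), with 24 of 80 members higher and 3 lower (background 14.7% and 19.6%). In the cells with 5 or more markers, median depth was 8597 and 1121 UMIs, and Malat1, a long RNA of the nucleus, stood at 2146 and 541 CPM. Thinning to 1000 UMIs before gating left fewer than 50 PBS cells in the gate, and thinning after gating was not done for this gate. The part of depth and of nuclear RNA was not tested.

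**Figure D2:**
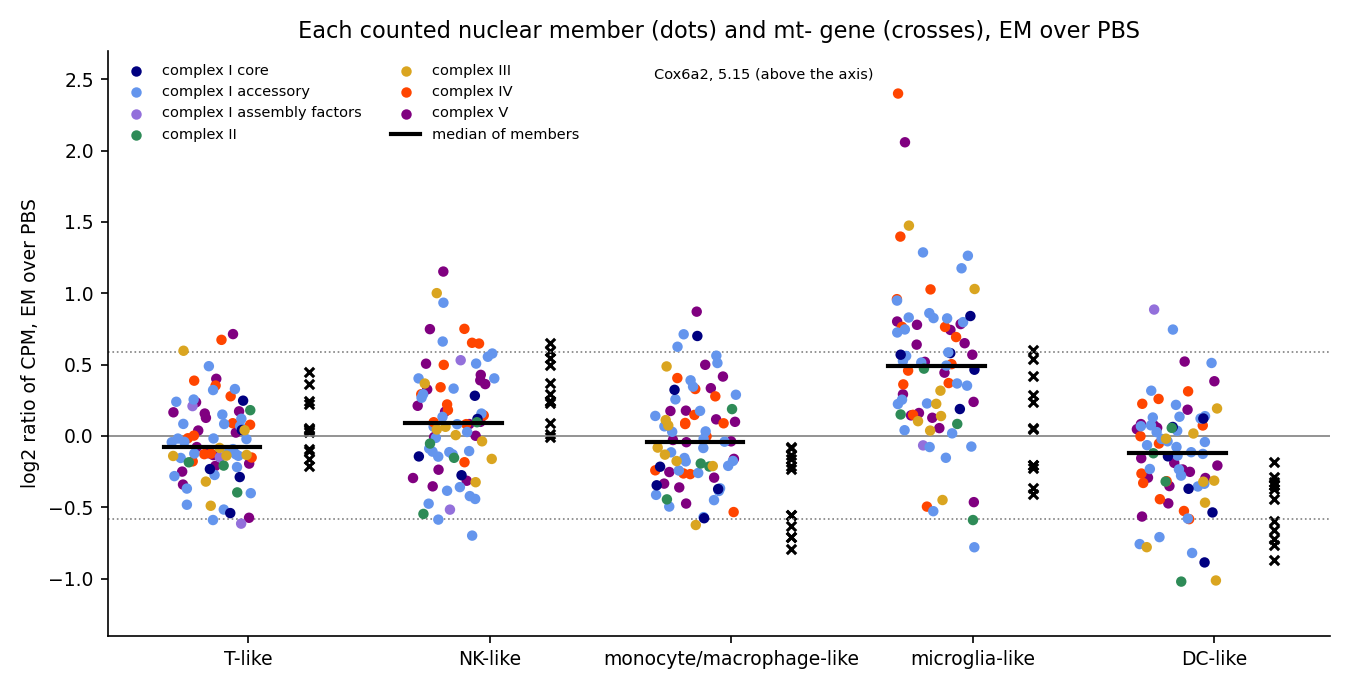
Log2 ratio of CPM, EM over PBS, of each counted nuclear member (dots, coloured by complex, black bar the median) and each counted mt- gene (crosses) in the 5 compared classes, with dotted lines at 1.5-fold. Members lie around 0 in all classes except the microglia-like gate (median 0.49). Cox6a2 in the microglia-like gate (5.15) is drawn at the top edge, beyond the axis, and every cross lies below 0 in monocyte/macrophage-like and DC-like cells.

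The mt- genes did not follow the nuclear members in all classes. In monocyte/macrophage-like cells their sum was 71619 CPM in PBS and 49796 in EM, a log2 ratio of -0.52 (-0.54 to -0.51) beside 0.0011 for the nuclear module. In DC-like cells it was 69982 and 46680, a log2 ratio of -0.58 (-0.60 to -0.57) beside -0.12. All 12 counted mt- genes had lower CPM in EM in each of these classes, most of all mt-Co2 (11222 CPM in PBS and 6490 in EM in monocyte/macrophage-like cells) and mt-Nd1 (7157 CPM in PBS and 3924 in EM in DC-like cells). The lower mt- sum was present in all 3 monocyte/macrophage-like subsets, at -0.54 with Arg1 or Mrc1, -0.44 with Ly6c2 and -0.54 in the others. In T-like cells the mt- ratio was 0.038 (0.034 to 0.042), in microglia-like cells -0.046 (-0.067 to -0.026), turning to 0.051 with median-of-ratios factors, and in NK-like cells 0.27 (0.26 to 0.29). In the microglia-like gate the nuclear sum thus differed more than the mt- sum. More PBS than EM barcodes exceeded the limit of 20% mt- UMIs (6.88% and 0.796%), and without that limit the ratios were -0.72 in monocyte/macrophage-like and -0.63 in DC-like cells.

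Some members kept a sign over classes, all of which come from the same 2 libraries. Atp5j2 was higher in EM in T-like, NK-like, monocyte/macrophage-like and microglia-like cells, and in DC-like cells it stood at 68.2 CPM in PBS and 97.9 in EM (log2 0.52, under the size for a call). Of its fellow complex V genes, Atp5d, the delta subunit, had ratios of -0.57, -0.35, -0.47, -0.46 and -0.47 in T-like, NK-like, monocyte/macrophage-like, microglia-like and DC-like cells, none called. The c subunit gene Atp5g1 stood at 0.13, 0.75, 0.42, 0.78 and 0.18 in the same order, and was called in NK-like and microglia-like cells. Atp5g3 was 0.65 in microglia-like cells and -0.35 in DC-like cells. In complex II, Sdha was between -0.59 and -0.054 in the 5 classes and Sdhd between 0.056 and 0.19, none called. Sdhb ranged from -0.55 to 0.47, and Sdhc was called in DC-like cells alone. Of the X-linked members, Cox7b was between 0.073 and 0.96, Ndufb11 between 0.13 and 0.51, and Ndufa1 between -0.34 and 0.86. Cox7b and Ndufb11 were thus above 0 in all 5 classes and Ndufa1 in 2, and the part of the libraries' unlike sex-linked RNA was not tested.

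Between classes, neutrophil-like cells stood furthest apart. In PBS their module CPM was 2.73-fold below that of T-like cells (log2 -1.45, -1.49 to -1.41), with 69 of 74 counted members called lower and 0 higher, against 48.8% and 23.4% of all genes counted. The member median was -1.59 beside -0.54 for all genes. Scaled by median-of-ratios size factors, which take out that shift of all genes, the module log2 ratio of neutrophil over T was -0.91. The mt- sum was lower as well, at 19075 against 59509 CPM, a log2 ratio of -1.64. By complex the log2 ratio went from -1.77 in complex V and -1.70 in complex III to -1.17 in complex IV and -1.03 in complex II.

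The members did not shift together. Atp5g2 stood at 59.5 CPM against 509.6 in T-like cells, a log2 ratio of -3.10 (-3.47 to -2.75), and Cox7a2l, which joins complexes III and IV in supercomplexes, at 61.3 CPM against 313 in T-like cells. Ndufc2 stood at 16.2 CPM against 113 in T-like cells and Uqcrc1, a core subunit of complex III, at 6.31 CPM against 42.0 in T-like cells. At the other end Cox8a, a small structural subunit of complex IV, stood at 455 CPM against 488 in T-like cells, a log2 ratio of -0.10 (-0.23 to 0.029) that turned to 0.44 with median-of-ratios factors. Ndufb1-ps stood at 182 CPM against 211 in T-like cells, a log2 ratio of -0.21 that likewise turned to 0.33, while Atp5g2 was at -2.56 under that scaling. Cox8a, Ndufb1-ps, Ndufa7, Ndufb9 and Cox6a1 were the 5 members not called, and they are named here after their values were seen. Of the promoter windows printed above, those of Atp5g2 and Cox6a1 hold an NRF1 match and that of Cox8a none. Against monocyte/macrophage-like cells of PBS, 65 of 72 counted members were lower and 0 higher (background 38.6% and 25.8%), with Cox8a at 455 against 583 CPM. After thinning every cell to 1000 UMIs the neutrophil-like module was 4281 CPM and the T-like module 11810.

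**Figure D3:**
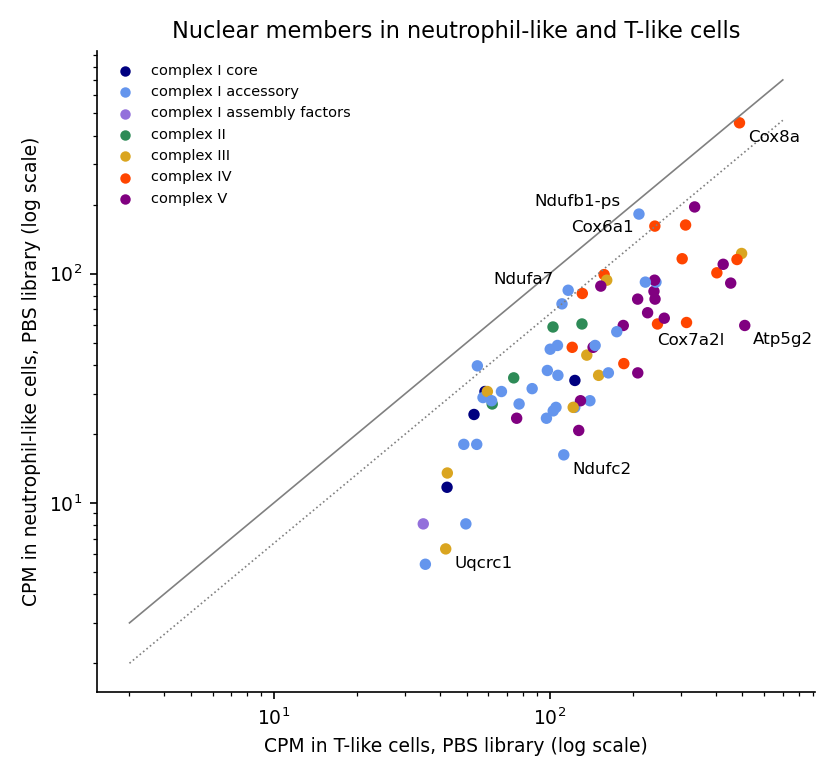
CPM of each of the 74 counted members in T-like (x axis) and neutrophil-like cells (y axis) of the PBS library, both on log scales, coloured by complex, with a solid line at equality and a dotted line at 1.5-fold lower. Most members lie below the dotted line, Atp5g2 at 59.5 against 509.6 CPM, while Cox8a lies near equality at 455 against 488 (above it, at log2 0.44, with median-of-ratios factors).

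Basophil/mast-like cells of EM were below T-like cells of the same library by a log2 ratio of -0.98 (-1.03 to -0.93), with 60 of 76 counted members lower and 0 higher, against 38.2% and 15.8% of all genes. The member median was -1.05 beside -0.47 for all genes, and the module log2 ratio of basophil/mast over T was -0.52 with median-of-ratios factors. Ndufc2 was again among the lowest, at 29.8 against 122 CPM, but Ndufa6 stood at 131 against 120.3 and Atp5pb at 185 against 202. The mt- log2 ratio was -0.43. In B-like cells the nuclear and mt- genes went opposite ways: the module log2 ratio over T-like cells was -0.62 in PBS and -0.53 in EM, and the mt- ratio 0.40 and 0.66. Counting a call only where both libraries met it, 16 of 76 members were lower and 0 higher, against 9.08% and 8.44% of all genes. Cox6c was among them, at 256 against 404 CPM in PBS and 173 against 371 in EM. The B-like class is small, with 53 and 97 cells.

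The module log2 ratio of monocyte/macrophage over T was -0.074 in PBS and -0.083 in EM, and turned to 0.22 and 0.26 with median-of-ratios factors. The median of all genes was -0.31 and -0.35 in CPM. In both libraries 1 of 76 members was called higher and 2 lower, against 15.5% and 27.1% of all genes. Sdhd, a membrane anchor of complex II, was higher, at 181 against 103 CPM in PBS (log2 0.82, 0.73 to 0.90) and 207 against 117 in EM (0.83, 0.63 to 1.01). Complex II as a whole was 0.35 and 0.37. The genes lower in monocyte/macrophage-like cells were Ndufb11 and the assembly factor Ndufaf4 (19.6 against 35.6 CPM in PBS, 15.2 against 32.1 in EM). Between NK-like and T-like cells no member of 76 was called in either direction in both libraries (background 5.93% and 6.05%), nor between DC-like and monocyte/macrophage-like cells (0 of 75, background 6.13% and 5.97%). Foxp3 T-like cells and those with Cd4 only gave 0 of 76 as well (3.04% and 2.62%). Microglia-like cells stood below monocyte/macrophage-like cells in PBS, at a module log2 ratio of -0.42 (-0.44 to -0.40) with 0 of 74 members above 0, but not in EM, at 0.07 (0.018 to 0.12) with 42 of 74 above 0. By calls met in both libraries, 0 of 74 were higher and 1 lower (3.98% and 3.51%), Ndufb1-ps, at 150.3 against 245 CPM in PBS and 192 against 320.4 in EM.

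Among T-like cells the module was higher in those with at least 3 of 10 cell cycle markers than in those with none. It stood at 15717 CPM in 616 cells against 11209 in 2167 cells in PBS, and at 15433 in 369 against 12101 in 3618 cells in EM. The log2 ratios were 0.49 (0.47 to 0.50) and 0.35 (0.33 to 0.37), while the mt- ratios were 0.013 and 0.016. In both libraries 13 of 78 counted members were called higher and 0 lower, against 10.5% and 11.2% of all genes. The member medians were 0.50 and 0.37, beside -0.13 and -0.08 for all genes, and 72 of 78 members lay above 0 in each library. Compared between libraries, the cycling cells stood at -0.026 (-0.046 to -0.0065), with 2 of 80 members higher in EM and 4 lower (background 10.5% and 9.34%), and the cells without markers at 0.11 (0.10 to 0.12), with 4 of 77 higher and 1 lower (8.26% and 11.3%).

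The largest of these ratios in PBS was that of Ndufab1, the mitochondrial acyl carrier protein that is also a complex I subunit, at 158 against 78.7 CPM in PBS and 115 against 64.3 in EM. Cox5a stood at 334 against 204 CPM in PBS and 374 against 215 in EM, and Cox7a2 at 233 against 119 CPM in PBS and 209 against 127 in EM. Atp5g3 stood at 655 against 355 CPM in PBS and 699 against 453 in EM, and Sdhd at 139.8 against 87.5 CPM in PBS and 169 against 105 in EM. Of the 5 complexes, III differed least, at 0.32 and 0.14, with Uqcrh at 470.0 against 501 CPM in PBS and 396 against 464 in EM. Cox7a2l, also low in neutrophil-like cells, was lower in cycling cells of both libraries as well, at 286 against 327 CPM in PBS and 255 against 349 in EM. The cycling cells were deeper, with median UMIs of 8910 against 3850 in PBS and 4197 against 1892 in EM, and module CPM in all T-like cells went from 10312 in PBS cells of 500 to 1000 UMIs to 15620 in those of at least 8000. With cells assigned first and then thinned to 1000 UMIs each, the module was 15208 against 10957 CPM in PBS and 15093 against 11829 in EM, which removes the unequal number of UMIs but not the choice of deeper cells by marker detection.

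**Figure D4:**
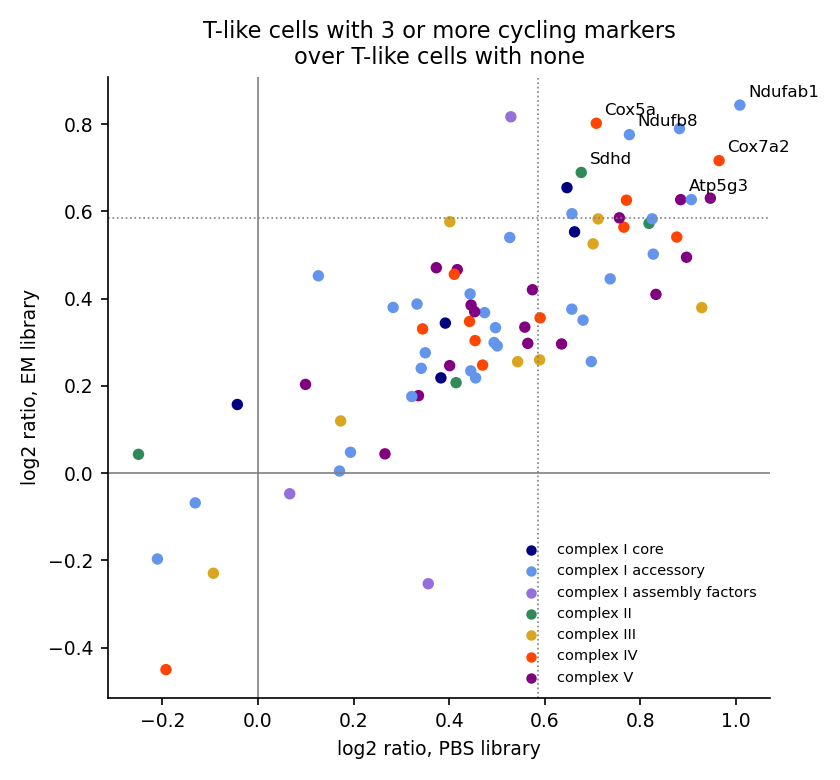
Log2 ratio of each of the 78 counted members in T-like cells with at least 3 cycling markers over T-like cells with none, PBS library on the x axis and EM library on the y axis, coloured by complex, with dotted lines at 1.5-fold. In each library 72 of 78 members lie above 0, and Cox7a2l lies below 0 in both.

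Several complex IV subunits have tissue-bound isoforms, and these were near 0 in nearly all classes. The exception was Cox6a2, the heart and skeletal muscle form of subunit 6A, in pDC-like cells of EM. It had 536 UMIs there, 959 CPM (879.9 to 1044), in 122 of 175 cells (69.7%, exact binomial interval 62.3 to 76.4%). In EM T-like cells it stood at 1.33 CPM, in NK-like cells at 11.0 and in DC-like cells at 4.50 (2 of 238 cells, 0.840%, at a median of 3412 UMIs against 2959 in pDC-like cells). In basophil/mast-like cells 0 of 164 cells had a Cox6a2 UMI at a median of 2214 UMIs. Taking 3 counts as the limit that a count of 0 allows, up to 1.83% of cells could have such a UMI, which limits detection and not expression. The ubiquitous form Cox6a1 lay between 149.9 and 343 CPM in all classes shown, and pDC-like cells held both, with Cox6a1 at 247 CPM (208 to 292). PBS had 2 pDC-like cells, so the 2 libraries cannot be compared for Cox6a2 there.

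**Figure D5:**
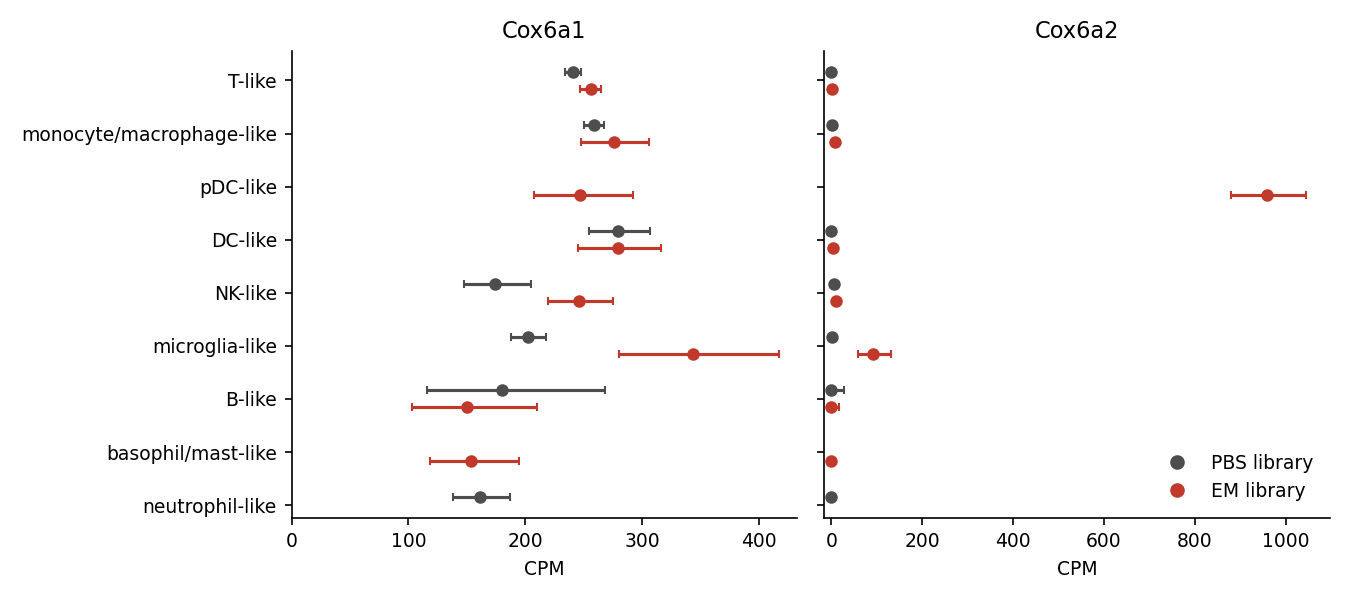
CPM of Cox6a1 (left) and Cox6a2 (right) in each class of at least 50 cells, PBS library in grey and EM library in red, with exact Poisson 95% intervals of counting error. Cox6a1 is present in every class, while Cox6a2 stands at 959 CPM in pDC-like cells of EM and at most 90.9 CPM elsewhere.

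Cox6a2 was also found in 21 of 211 EM microglia-like cells (27 UMIs, 90.9 CPM, 59.9 to 132), against 2.55 CPM in PBS. Over all 211 EM cells of the gate, summed pDC markers were 562 CPM, against 12035 in pDC-like cells. Siglech, which is also on the microglia list, made up 303 of the 562 CPM (90 UMIs). The pDC gene Ccr9 had 0 UMIs and Klk1 had 3, so most of the rest came from pDC markers not given singly here. The Cox6a2 value moved between 28.4 and 145 CPM over the alternative gates and filters. Leaving out cells with any Cox6a2 UMI or at least 2 other pDC markers left the module log2 ratio of the gate at 0.48. Between pDC-like and DC-like cells of EM, 3 of 78 members, Cox6a2 among them, were called higher in pDC-like cells and 3 lower, against 22.6% and 18% of all genes. Ndufaf4 (37.6 against 10.1 CPM) and Sdhc were the others higher, and Ndufa6 (75.2 against 151), Sdhd (94.9 against 177) and Ndufab1 were lower. The mt- log2 ratio was 0.78 beside 0.06 for the module, which turned to -0.062 with median-of-ratios factors.

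Of the other isoforms, Cox4i2, the hypoxia-linked form of subunit 4, had 57 UMIs in 51 of 1457 PBS monocyte/macrophage-like cells (4.51 CPM, 3.41 to 5.84) and 2 UMIs in EM (1.52 CPM, 0.184 to 5.49), intervals that overlap. In PBS T-like cells it had 2 UMIs in 4044 cells. The main form Cox4i1 stood at 351 and 292 CPM in the same monocyte/macrophage-like cells. Cox7a1, the heart and muscle form of subunit 7A, was at most 3.37 CPM in any class shown (1 UMI), and Cox6b2, a testis form, at most 9.16. Ndufa4l2, a hypoxia-induced relative of Ndufa4, had 6 UMIs in PBS and 0 in EM over all kept cells, Cox8c 2 UMIs in PBS, and Cox7b2 1.

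Other genes around the chain were set beside the members from lists of regulators, carriers and enzymes. Of the biogenesis regulators, Ppargc1b, a coactivator of mitochondrial genes, stood at 78.4 CPM in PBS and 11.4 in EM in monocyte/macrophage-like cells, 60.3 CPM in PBS and 3.38 in EM in DC-like and 76.3 CPM in PBS and 13.5 in EM in microglia-like cells, where module ratios were 0.0011, -0.12 and 0.49. The related Pprc1 was 31.8 CPM in PBS and 13.7 in EM in monocyte/macrophage-like cells, and Ppargc1a had 0 UMIs in the myeloid classes of both libraries. Tfam, which packages mitochondrial DNA, was called in no class, with ratios of -0.28 to 0.51. Over the 14 regulators, 4 of 10 counted were lower and 0 higher in monocyte/macrophage-like cells, and 2 of 9 lower and 0 higher in microglia-like cells, beside 23.9% and 22.5% of all genes lower, so the microglia-like count was at the background. In NK-like and in DC-like cells 1 of 9 was higher and 2 lower. All genes stood at 9.14% higher and 16.5% lower in NK-like and at 16% and 17.1% in DC-like cells. In T-like cells 0 of 8 were called in either direction, against 8.1% and 10.2% of all genes. On so few genes these counts do not stand apart from the background. Cycs, cytochrome c itself, stood at 86.9 CPM in PBS and 203 in EM in monocyte/macrophage-like and 133 CPM in PBS and 280.3 in EM in DC-like cells, called higher in both and in microglia-like cells.

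Ucp2, a carrier of the inner membrane, was called higher in EM in T-like, NK-like, monocyte/macrophage-like and microglia-like cells, at 738 CPM in PBS and 1174 in EM in the first and 1120 CPM in PBS and 1932 in EM in the third. Sod2, the superoxide dismutase of the matrix, was called lower in monocyte/macrophage-like (244 CPM in PBS and 137 in EM), DC-like and microglia-like cells. Acod1, which makes itaconate, an inhibitor of complex II, stood at 71.0 CPM in PBS and 125 in EM in monocyte/macrophage-like cells and 128 CPM in PBS and 47.1 in EM in microglia-like cells. In the microglia-like gate the mitochondrial ribosome list followed the module, with 10 of 42 counted genes higher and 0 lower (log2 of the sum 0.52 (0.40 to 0.63)). The TCA cycle list did so with 5 of 11 higher and 0 lower (0.40 (0.21 to 0.58)), against the 16.7% and 22.5% of all genes given above. Cytosolic ribosome genes differed less there, at 0.19 (0.17 to 0.21). In T-like cells these lists stood at -0.012, -0.10 and -0.18.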

How the data were processed

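The authors deposited 1 matrix per library with raw counts (UMIs per gene and barcode, whole numbers), per the file headers. CASAVA 1.8 and STARsolo were used with mm10, per the submitters' processing notes. For the annotation, the cell calling and reads shared with pseudogenes, which many members have, details were not given in the sources used here. Every barcode held at least 500 UMIs.

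Cells with at least 200 genes, 500 UMIs and at most 20% mt- UMIs were kept and gated by markers. 790 PBS cells (10.2%) and 641 EM cells (8.05%) stayed unassigned. No doublet caller was run, and the margin of 2 markers leaves out cells with mixed lineage markers. UMIs were summed per class. Ratios carry exact conditional binomial intervals, CPM exact Poisson intervals and shares exact Clopper-Pearson intervals. The calculation was tested on simulated data. Promoters are RefSeq's (GRCm38.p6). Python 3.11.15, numpy 2.4.6, scipy 1.17.1 and pandas 2.3.3 were used.

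Members and lists were chosen with earlier results of these data known. The genes set to be named were, per class, the 3 highest and 3 lowest counted members, the highest members of each complex, set isoforms and context genes. Of the lowest, some were not described above, and none of these was called. They are Ndufv1 (log2 -0.58) and Ndufb7 (-0.57) in monocyte/macrophage-like cells and Ndufa10 (-0.53) in microglia-like cells. Others named were chosen after their values were seen. In all, 12 alternatives listed at the outset and 3 chosen after seeing the data were run.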

Additional observations from a re-analysis of the deposited data

Results flagged for a closer look

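The module ratio of EM over PBS had opposite signs in 2 classes of the same libraries: 0.49 on the log2 scale in microglia-like cells (9043 and 12719 CPM) and -0.12 in DC-like cells (12630 and 11638 CPM). The mt- genes had opposite signs in NK-like cells, at 0.27, and monocyte/macrophage-like cells, at -0.52. With 1 library a group neither difference was tested.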

How the results depend on the processing

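No paired analysis was possible because each group has 1 library and the labels give no replicate numbers. The module ratio kept its sign under each alternative that gave a value in T-like (0.0073 to 0.075), NK-like, microglia-like and DC-like cells. It did not in monocyte/macrophage-like cells.

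Values that moved are log2 module ratios, then members called higher or lower. The share of all genes called was not computed under these alternatives, except with 5 or more microglia markers, where it is given above. The counts thus show only how the calls moved, not whether the members stood apart from all genes. With mt- UMIs left out of CPM: monocyte/macrophage -0.032 (2 lower), DC -0.15. With median-of-ratios factors: T 0.075 (0 lower), NK 0.28 (1 lower), monocyte/macrophage 0.11 (8 higher, 0 lower), microglia 0.59. With no mt- limit: monocyte/macrophage 2 lower. With at least 1000 UMIs and at most 10% mt- UMIs: NK 1 lower, monocyte/macrophage -0.12 (5 lower), microglia 0.44 (3 lower). With thinning to 1000 UMIs: T 0.050, NK 0.23 (1 lower), monocyte/macrophage 0.12 (8 higher), microglia 1.11 (10 higher, 0 lower, on fewer than 50 PBS cells), DC 0 higher and 2 lower. With equal weight per cell: T 0.053 (1 lower), NK 0.24, monocyte/macrophage 0.21 (15 higher), microglia 0.65. With a margin of 1 marker: T and NK 1 lower each, monocyte/macrophage and microglia 2 lower each. With a minimum of 4 markers: T and NK 1 lower each, microglia 0.67 (0 lower), DC 1 higher. Without the 5% deepest cells: T 0 lower, monocyte/macrophage 0.045, microglia 0.67 (0 lower), DC -0.045 (1 higher). With no CPM minimum, T and NK each had 4 lower. At 100 CPM or more, T, NK and microglia had 0 lower, monocyte/macrophage 1 higher and 0 lower, DC 0 higher and 1 lower. At 2-fold, T and monocyte/macrophage had 0 in either direction, NK 2 higher and 0 lower, microglia 9 higher and 0 lower, DC 0 higher and 2 lower. Without shared barcodes, monocyte/macrophage and microglia had 2 lower each. With 5 or more microglia markers, the ratio was 0.67 (0 lower). Ndufa6 in microglia-like cells reversed to 0.38 with thinning and 0.27 with 5 or more markers. Fewer genes or cells enter under the stricter filters; otherwise the cause was not tested.

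The other values gave 2069 comparisons with an alternative, of which 1760 were unmoved. For sums and single genes this means within their counting interval. Median member ratios have no such interval and were judged by the bounds or the width of the module ratio's interval. The count of 1760 includes the alternatives that change only the CPM minimum or the size for a call. These leave sums and the ratios of single genes as they are, so such values could not move under them. The same holds for the module ratios above. Depth limits the EM microglia-like gate, with 3779 module UMIs, and the B-like cells, with 1103 in PBS and 1962 in EM.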
